A study of Mus musculus with 6 samples.

Results

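The collagen genes of the mouse were examined in differentiated embryonic stem cells with and without the transcription factor HOXA13. Members were all gene symbols of the count lists made of Col, a type number, the letter a and a chain number, which gave 44 of the 24393 listed symbols. They were grouped into 11 fibrillar chains, 9 chains of the basement membrane, 9 FACIT chains (fibril-associated collagens with interrupted triple helices) and 15 other chains. Of the 44, 2 had no count in any library (Col15a1 and Col9a1), 32 passed the filter on low counts and were tested, and the other 12, which include both genes without a count, were not tested.

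The 6 libraries came from KH2 cells, mouse embryonic stem cells in which a gene can be placed under doxycycline control, with 3 libraries labelled CONTROL and 3 labelled HOXA13. The strain of all 6 is given as C57/BL/6. By the study's methods the HOXA13 cells are targeted clones with an inducible, FLAG-tagged human HOXA13 gene, and each group has 3 biological replicates. All cultures were differentiated for 6 days on M15 feeder cells, which derive from mesoderm. LIF was withdrawn, and the cells received CHIR, Activin-A, Noggin and bFGF. HOXA13 was induced with doxycycline at 1.25 µg/ml from day 4, and on day 6 the CXCR4+/E-cadherin+ cells were sorted and kept in doxycycline for a further day. The protocol is shared by all samples, so the labels do not say separately whether CONTROL cells received doxycycline. The comparison asked how the transcriptome of endoderm-directed cells differs when HOXA13 is expressed. The p-values rest on 3 libraries per group and weigh a difference only against the spread between these samples. In the edgeR fits the estimate of that spread also drew on the other tested genes. Since the HOXA13 cells are targeted clones, differences between clones cannot be told apart from an effect of HOXA13.

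Collagens are trimers of chains that wind into a triple helix, are hydroxylated and folded in the endoplasmic reticulum and are trimmed and cross-linked outside the cell. Fibrillar collagens form the banded fibres of connective tissue and are made mostly by mesenchymal cells, whereas type IV collagen forms the sheet-like network of basement membranes under epithelia and around early embryonic endoderm. FACIT collagens sit on the surface of fibrils, and the remaining types form beaded filaments, hexagonal networks or transmembrane proteins.

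The libraries held 12279884 to 17331638 counts, and a floor of 3 counts corresponded to 0.176 to 0.240 CPM, the count relative to the TMM-normalised size of its library, which covers counting error only. The row under the human identifier ENSG00000106031, which the files do not pair with a symbol, had 0 counts in every CONTROL library and 2497, 7666 and 6572 counts in HOXA13 1, 2 and 3, while mouse Hoxa13 had at most 10 counts in any library. CONTROL 2 stood apart from the other CONTROL libraries: Pou5f1, a pluripotency factor, was at 309.7 CPM there, against 0.851 and 5.78 CPM in CONTROL 1 and 3 and 75.9, 10.1 and 15.3 CPM in HOXA13 1, 2 and 3. CONTROL 1 stood apart in another way: 18 epithelial markers summed to 3386 CPM there, against 9600 and 7353 CPM in CONTROL 2 and 3. The fits for the collagens described by library and the calls in each gene list are given with and without CONTROL 2. Leaving out CONTROL 1 instead gave 0 called collagens in edgeR, and leaving out CONTROL 2 gave 10. The fit without CONTROL 2 is therefore not read as the cleaner comparison. Of the definitive endoderm markers, Sox17 lay between 0.975 and 4.84 CPM over the 6 libraries, Foxa2 between 1.76 and 5.04 CPM and Cxcr4, the sorted antigen, between 2.25 and 11.3 CPM, and Cer1 had no count, whereas Gata4 lay between 13.1 and 31.9 CPM and Eomes between 24.4 and 111 CPM. The second sorted antigen, E-cadherin (Cdh1), was at 192, 1292 and 702 CPM in CONTROL 1, 2 and 3 and at 1732, 1690 and 1893 CPM in HOXA13 1, 2 and 3.

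Collagen transcripts made up 0.628%, 0.214% and 0.486% of all counts in CONTROL 1, 2 and 3, and 0.147%, 0.240% and 0.226% in HOXA13 1, 2 and 3. CONTROL 1 and 3 thus held the most collagen RNA, and CONTROL 2 lay within the HOXA13 range. Of the 32 tested collagens, 26 were lower and 6 higher in HOXA13 by fitted log2 fold change, with a median of -0.98 against -0.01 over all 13600 tested genes. None passed edgeR's quasi-likelihood test after Benjamini-Hochberg adjustment (0 of 32), against 0.309% of all tested genes, and 7 had an unadjusted edgeR p under 0.05, all of them lower, against 14.1% of all tested genes in either direction and 6.02% in the lower direction. In bulk RNA, fewer cells of a type and less RNA per cell cannot be told apart.

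The outcome of the test depended on the tool and on CONTROL 2. DESeq2 called 3 of the 33 collagens to which it gave an adjusted p, against 5.07% of all genes, and all 3 were lower in HOXA13: Col11a1, Col4a5 and Col7a1. Without CONTROL 2, edgeR called 10 of 33, against 14.2% of all genes. These were Col11a1, Col12a1, Col16a1, Col4a1, Col4a2, Col4a5, Col5a1, Col7a1 and Col8a1, all lower in HOXA13, and Col18a1, which was higher. The 3 collagens called by DESeq2 were among these 10. Limma voom, which gives each library a weight from the data, called 11 of 32 with all 6 libraries, against 15.4% of all genes, 10 of them those called by edgeR without CONTROL 2 and 1 more, Col27a1. Over the 14 alternatives, which include these, the adjusted p ranged from 0.000349 to 0.529 for Col11a1 and from 0.000349 to 0.571 for Col4a5. The lowest values were 0.00218 for Col8a1, 0.00383 for Col12a1, 0.00478 for Col7a1, 0.00658 for Col5a1, 0.0118 for Col18a1, 0.0136 for Col4a1 and 0.0264 for Col4a2, and the highest values of these 7 genes lay between 0.575 and 0.998.

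**Figure D1:**
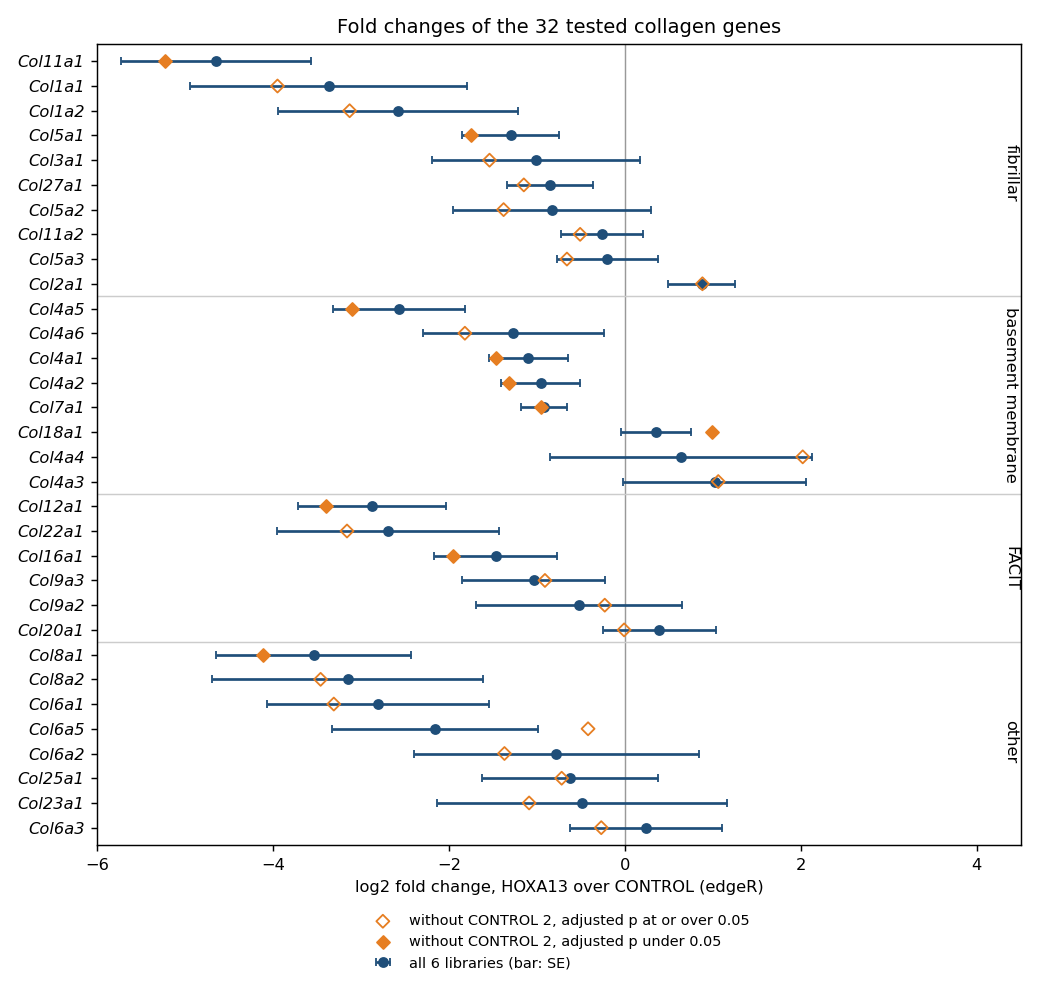
Log2 fold change of HOXA13 over CONTROL for the 32 tested collagens, grouped by class, from edgeR with all 6 libraries (circles, bars are SE) and without CONTROL 2 (diamonds, filled where the adjusted p was under 0.05). Most values lie below 0 (26 of 32), and the 10 filled diamonds include 1 above 0, Col18a1.

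The libraries did not separate cleanly by group for most collagens. In 4 of the 32 tested genes, Col7a1, Col22a1, Col9a3 and Col8a2, all 3 HOXA13 values lay below all 3 CONTROL values, against 8.52% of all tested genes. In 1 gene, Col2a1, all HOXA13 values lay above all CONTROL values, against 11.5%. When only CONTROL 1 and 3 were compared with the HOXA13 libraries, 20 of 32 collagens (62.5%) had all HOXA13 values lower, against 23.9% of all genes, and 2 of 32 had them all higher, against 25.3%. CONTROL 2 was the lowest CONTROL library in 23 of 32 collagens (71.9%) and in 42.0% of all genes. CONTROL 1 was the highest of the 6 libraries in 19 of 32 (59.4%), against 22.3% of all genes, and HOXA13 1 was the lowest in 12 of 32 (37.5%), against 19.7%.

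**Figure D2:**
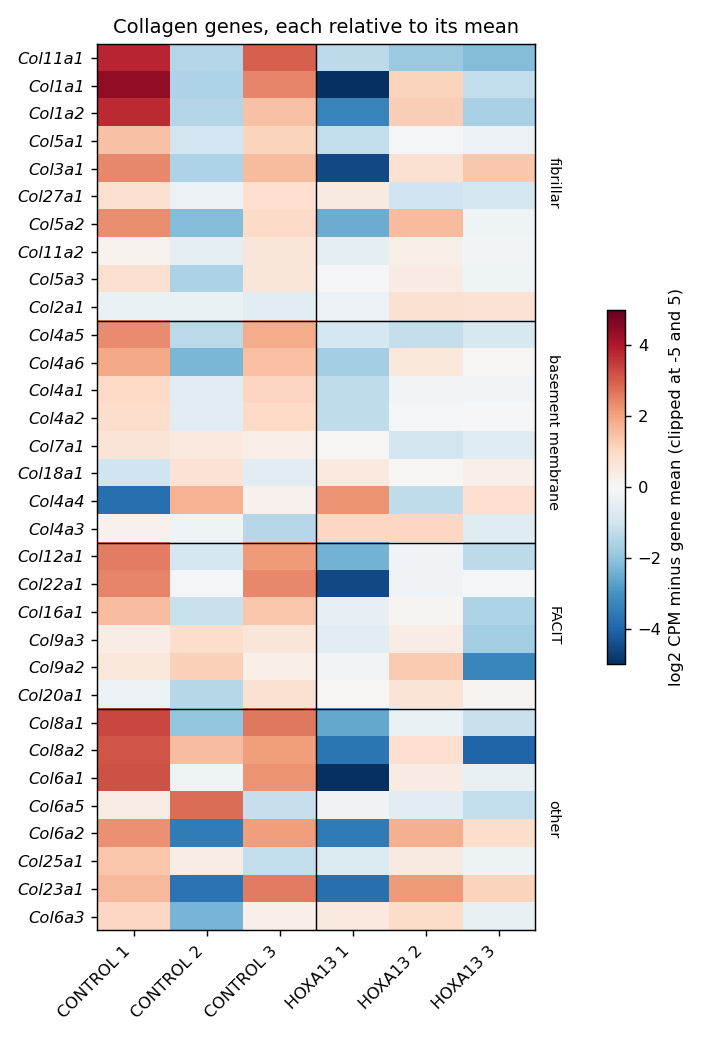
Log2 CPM of each tested collagen in the 6 libraries minus the mean of that gene over the 6, red for higher and blue for lower, with genes grouped by class. CONTROL 1 and 3 are red and HOXA13 1 is blue in most fibrillar, FACIT and other chains, CONTROL 2 is blue in all 10 fibrillar chains, and Col18a1 is blue in CONTROL 1 and 3.

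By CONTROL mean, the fibrillar chains were led by Col1a1 of type I collagen, the main fibre of bone, skin and stroma. It was at 83.0 CPM per kb of transcript, ahead of Col5a1 at 23.8 and Col1a2 at 18.2 CPM per kb. The lead did not hold in every library: per kb, Col5a1 exceeded Col1a1 in CONTROL 2, HOXA13 1 and HOXA13 3. Col1a1 (mm9 chr11:94797538-94814356, plus strand) was at 1163, 18.6 and 295 CPM in CONTROL 1, 2 and 3 and at 1.38, 118 and 23.2 CPM in HOXA13 1, 2 and 3. The CONTROL values spanned more than the gap between the groups, and HOXA13 2 exceeded CONTROL 2. This gave a log2 fold change of -3.37 (SE 1.57, edgeR adjusted p = 0.392), -3.95 without CONTROL 2 (edgeR adjusted p = 0.0565) and -1.74 without CONTROL 1. Its partner chain Col1a2 (mm9 chr6:4454814-4491543, plus strand) was likewise highest in CONTROL 1 and lowest in HOXA13 1, at 236 (CONTROL 1), 6.40 (CONTROL 2), 48.8 (CONTROL 3), 1.69 (HOXA13 1), 41.3 (HOXA13 2) and 5.70 CPM (HOXA13 3). Its log2 fold change was -2.58 (SE 1.36, edgeR adjusted p = 0.453) and -3.13 without CONTROL 2 (edgeR adjusted p = 0.0769). It was -0.78 without CONTROL 1 and -4.72 without HOXA13 2, and that of Col1a1 was -5.34 without HOXA13 2.

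Col3a1 (mm9 chr1:45368383-45406551, plus strand), which makes the fine fibres of type III collagen, was at 106, 6.88 and 61.1 CPM in CONTROL 1, 2 and 3 and at 0.845, 34.0 and 51.6 CPM in HOXA13 1, 2 and 3. The groups overlapped widely, with a log2 fold change of -1.01 (SE 1.18, edgeR adjusted p = 0.775). Col3a1 lies on chromosome 1, where the median log2 fold change of 476 genes was 0.54. With each library offset by its chromosome medians, that of Col3a1 was -1.58. It was -1.54 without CONTROL 2 (edgeR adjusted p = 0.326), -0.25 without CONTROL 1, -0.45 without HOXA13 1 and -1.74 without HOXA13 3.

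Col11a1 (mm9 chr3:113733458-113923636, plus strand), a chain of type XI collagen that sets the diameter of fibrils and is best known from cartilage, had the lowest fold change of the 32. It was at 194, 4.96 and 111 CPM in CONTROL 1, 2 and 3 and at 5.53, 3.75 and 3.09 CPM in HOXA13 1, 2 and 3. CONTROL 1 and 3 exceeded every HOXA13 library, whereas CONTROL 2 fell between HOXA13 1 and the other HOXA13 libraries. Its log2 fold change was -4.65 (SE 1.08, edgeR adjusted p = 0.118). It was -4.67 with DESeq2 (adjusted p = 0.00383) and -5.23 without CONTROL 2 (edgeR adjusted p = 0.000349), and without CONTROL 1 it was -3.84. Its partner Col11a2 lay between 3.92 and 8.48 CPM in all 6 libraries, with a log2 fold change of -0.26 (SE 0.47, edgeR adjusted p = 0.861), or -0.51 without CONTROL 2.

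Col5a1 (mm9 chr2:27741945-27895034, plus strand), whose type V collagen starts fibril assembly, was at 304, 57.6 and 238 CPM in CONTROL 1, 2 and 3 and at 48.0, 106 and 89.9 CPM in HOXA13 1, 2 and 3. Again only CONTROL 2 lay within the HOXA13 range. For Col5a1 the log2 fold change was -1.30 (SE 0.55, edgeR adjusted p = 0.348), and -1.75 without CONTROL 2 (edgeR adjusted p = 0.00658), but -0.88 without CONTROL 1. Col2a1 (mm9 chr15:97806033-97835155, minus strand), the main collagen of cartilage, was the exception among the fibrillar chains. It was at 7.52, 7.44 and 6.60 CPM in CONTROL 1, 2 and 3 and at 7.61, 16.2 and 15.5 CPM in HOXA13 1, 2 and 3. The groups did not overlap, although HOXA13 1 exceeded CONTROL 1 by little, and the log2 fold change of 0.87 (SE 0.38) did not pass (edgeR adjusted p = 0.356, and 0.201 without CONTROL 2, at 0.88).

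Of the other fibrillar chains, Col5a2, Col5a3 and Col27a1 had mean levels of 19.8, 10.0 and 13.5 CPM and log2 fold changes of -0.83, -0.20 and -0.85. Without CONTROL 2 they were -1.38, -0.66 and -1.15. Over the 10 tested fibrillar chains 9 were lower and the median was -0.93, or -1.46 without CONTROL 2. Col24a1 had at most 6 counts in a library and was not tested.

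**Figure D3:**
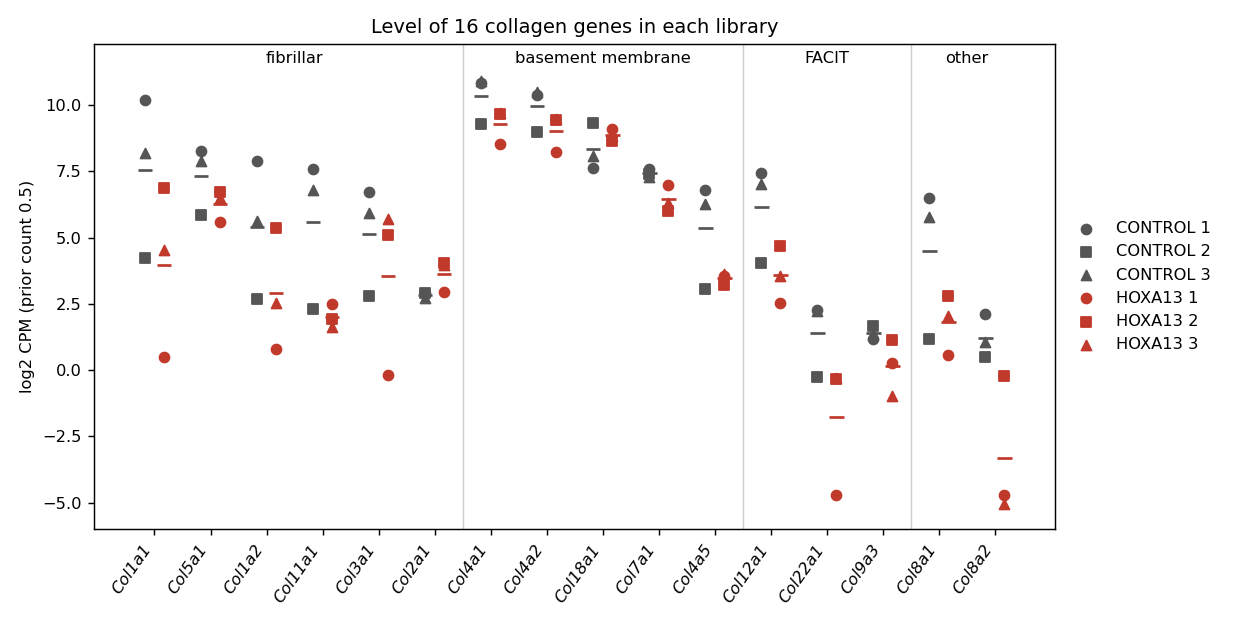
Log2 CPM (prior count 0.5) of 16 collagens in each library, CONTROL in grey and HOXA13 in red, with a marker shape for each replicate number and a short line at the group mean. For Col1a1, Col11a1, Col12a1 and Col8a1 the CONTROL 2 square sits far below the other CONTROL points, for Col7a1 all HOXA13 points lie below the CONTROL points, and for Col18a1 the CONTROL 2 square is the highest of the 6.

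The paired genes Col4a1 and Col4a2, which encode the chains of the common type IV trimer, led the basement membrane chains and all collagens, with CONTROL means of 217 and 169.8 CPM per kb. They lie head to head on chromosome 8 (mm9 chr8:11198423-11312826 on the minus strand and chr8:11312805-11449287 on the plus strand). In the RefSeq annotation of GRCm38 their start sites, at 11312826 and 11312805, are 21 bases apart, and windows from 250 bases before to 50 bases after each start share 78 bases. A RefSeq window was found for 35 of the 44 collagens, 38 windows in all. The windows of Col4a1 (GRCm38 chr8:11312777-11313076, minus strand) and Col4a2 (GRCm38 chr8:11312555-11312854, plus strand) are printed because the ratio of these chains hardly varied between the libraries. Capitals mark the CCAAT box (CCAAT or, on the opposite strand, ATTGG) and the GC box (GGGCGG or CCGCCC).
Col4a1: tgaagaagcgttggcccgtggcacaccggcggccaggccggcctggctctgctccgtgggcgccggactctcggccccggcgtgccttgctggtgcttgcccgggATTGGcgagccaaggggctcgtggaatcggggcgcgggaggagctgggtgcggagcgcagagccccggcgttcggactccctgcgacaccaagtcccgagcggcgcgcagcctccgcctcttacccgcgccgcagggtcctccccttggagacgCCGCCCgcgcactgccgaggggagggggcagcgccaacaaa
Col4a2: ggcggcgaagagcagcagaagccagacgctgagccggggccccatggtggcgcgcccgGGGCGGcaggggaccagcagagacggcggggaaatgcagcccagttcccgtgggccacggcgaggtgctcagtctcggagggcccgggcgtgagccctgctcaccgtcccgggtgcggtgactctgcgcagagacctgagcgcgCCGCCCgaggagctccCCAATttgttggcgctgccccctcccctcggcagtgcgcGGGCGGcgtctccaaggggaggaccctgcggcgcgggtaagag

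Col4a1 was at 1800, 621 and 1895 CPM in CONTROL 1, 2 and 3 and at 371, 819 and 823 CPM in HOXA13 1, 2 and 3. Col4a2 was at 1334, 505 and 1446 CPM in the CONTROL libraries and at 297, 686 and 705 CPM in the HOXA13 libraries. For both chains CONTROL 1 and 3 were above all HOXA13 libraries and CONTROL 2 lay between HOXA13 1 and the other HOXA13 libraries. The log2 fold changes were -1.10 for Col4a1 (SE 0.45, edgeR adjusted p = 0.328) and -0.96 for Col4a2 (SE 0.45, edgeR adjusted p = 0.390). Without CONTROL 2 both passed, at -1.47 (edgeR adjusted p = 0.0136) and -1.32 (edgeR adjusted p = 0.0264). Without HOXA13 1 they were -0.82 and -0.67. The log2 ratio of Col4a1 to Col4a2 stayed between 0.22 and 0.43 in all 6 libraries, at 0.37 ± 0.07 in CONTROL and 0.27 ± 0.05 in HOXA13 (SD, n = 3).

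The remaining type IV chains form the trimers of specialised basement membranes such as those of the kidney. Col4a5 (mm9 chrX:137909928-138123778, plus strand) was at 111, 8.39 and 76.6 CPM in CONTROL 1, 2 and 3 and at 11.5, 9.31 and 12.2 CPM in HOXA13 1, 2 and 3. CONTROL 2 was the lowest of the 6 libraries, and the HOXA13 values lay close together. Its fitted log2 fold change was -2.57 (SE 0.75, edgeR adjusted p = 0.185), with a DESeq2 adjusted p of 0.00226 and, without CONTROL 2, an edgeR adjusted p of 0.000349 at -3.10. Without CONTROL 1 it was -1.97. Its neighbour Col4a6, which starts 1343 bases away on the other strand, was at 3.40 CPM on average with a log2 fold change of -1.27, or -1.82 without CONTROL 2. Col4a3 and Col4a4 were under 1 CPM on average, with log2 fold changes of 1.02 (SE 1.04) and 0.64 (SE 1.49), and of 1.06 and 2.02 without CONTROL 2. Both lie on chromosome 1, where the median log2 fold change of 476 genes was 0.54. With chromosome offsets the number of lower basement membrane chains stayed at 5.

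Col7a1 (mm9 chr9:108855631-108886920, plus strand) encodes the anchoring fibrils that fix stratified epithelia to the tissue beneath. It was at 191, 169 and 155 CPM in CONTROL 1, 2 and 3 and at 128, 64.3 and 79.4 CPM in HOXA13 1, 2 and 3. All HOXA13 libraries lay below all CONTROL libraries, and CONTROL 2 did not stand apart. The log2 fold change was -0.92 (SE 0.26), which did not pass in edgeR (adjusted p = 0.169) but passed in DESeq2 (-0.95, adjusted p = 0.025) and in edgeR without CONTROL 2 (-0.95, adjusted p = 0.0443). Leaving out any 1 library kept the value between -1.27 and -0.75.

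Col18a1 (mm9 chr10:76514923-76629293, minus strand), a heparan sulphate collagen of basement membranes and the source of endostatin, showed the opposite order. It was at 197, 638 and 269 CPM in CONTROL 1, 2 and 3 and at 540, 404 and 458 CPM in HOXA13 1, 2 and 3. CONTROL 2 was the highest of the 6 libraries, and the other CONTROL libraries were the lowest. The log2 fold change was 0.35 (SE 0.40, edgeR adjusted p = 0.772), 0.99 without CONTROL 2 (edgeR adjusted p = 0.0118) and 0.02 without CONTROL 1. Over the 8 tested basement membrane chains 5 were lower and 3 higher, with a median of -0.94, or -1.14 without CONTROL 2.

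Among FACIT chains, Col12a1 (mm9 chr9:79446798-79566638, minus strand), which coats type I fibrils, had the highest CONTROL mean, at 9.26 CPM per kb. It was at 175, 16.3 and 128 CPM in CONTROL 1, 2 and 3 and at 5.69, 25.7 and 11.8 CPM in HOXA13 1, 2 and 3. CONTROL 2 lay within the HOXA13 range and the other CONTROL libraries far above it. The log2 fold change was -2.88 (SE 0.84, edgeR adjusted p = 0.183), and -3.40 without CONTROL 2 (edgeR adjusted p = 0.00383). It was -2.34 without CONTROL 1 and -3.62 without HOXA13 2. Col16a1, at 10.6 CPM on average, had a log2 fold change of -1.47 (SE 0.70, edgeR adjusted p = 0.404), and -1.95 without CONTROL 2 (edgeR adjusted p = 0.0225).

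Col22a1 and Col9a3 were low but did not overlap between groups. Col22a1, found at tissue junctions such as that of muscle and tendon, was at 4.82, 0.800 and 4.65 CPM in CONTROL 1, 2 and 3 and at 0, 0.761 and 0.788 CPM in HOXA13 1, 2 and 3. CONTROL 2 exceeded the highest HOXA13 library by less than the value of 1 count, so the separation of this gene is within counting error. Col9a3, a chain of the type IX collagen of cartilage, was at 2.20, 3.12 and 2.55 CPM in CONTROL and at 1.15, 2.17 and 0.485 CPM in HOXA13, with CONTROL 1 and HOXA13 2 almost equal. Their log2 fold changes were -2.69 (SE 1.26, edgeR adjusted p = 0.394) and -1.04 (SE 0.81, edgeR adjusted p = 0.641). Without CONTROL 2 they were -3.16 (edgeR adjusted p = 0.108) and -0.91 (edgeR adjusted p = 0.594), and that of Col9a3 was -1.70 without HOXA13 2 and -0.67 without HOXA13 3. Col9a2 and Col20a1 were at 1.22 and 4.35 CPM on average, with log2 fold changes of -0.52 and 0.39, which were -0.23 and -0.01 without CONTROL 2. Over the 6 tested FACIT chains 5 were lower and the median was -1.25, or -1.95 over the 7 tested without CONTROL 2.

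Col19a1 and Col14a1 were FACIT chains under the filter with counts in CONTROL libraries and none in HOXA13 libraries. Col19a1 had 10, 6 and 10 counts in CONTROL 1, 2 and 3 and 0 in each HOXA13 library, so its CONTROL mean was at least 2.80-fold higher than the highest HOXA13 floor of 3 counts in a library. Without CONTROL 2 the gene passed the filter and was tested, with an edgeR adjusted p of 0.124. Col14a1 had 3, 0 and 24 counts in CONTROL and 0 in each HOXA13 library, and was not tested in either fit.

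By CONTROL mean, at 9.60 CPM per kb, the other chains were led by Col8a1 (mm9 chr16:57624371-57754850, minus strand). Col8a1 builds the hexagonal network of vessel walls and of the membrane behind the cornea. Per kb it was below Col6a5 in CONTROL 2 and below Col6a4 and Col6a3 in HOXA13 1. It was at 90.1, 2.24 and 54.7 CPM in CONTROL 1, 2 and 3 and at 1.46, 6.97 and 4.06 CPM in HOXA13 1, 2 and 3. CONTROL 2 was again inside the HOXA13 range. The log2 fold change was -3.54 (SE 1.11, edgeR adjusted p = 0.207), and -4.11 without CONTROL 2 (edgeR adjusted p = 0.00218). It was -2.78 without CONTROL 1 and -4.16 without HOXA13 2. Its partner Col8a2 (mm9 chr4:125964037-125991574, plus strand) was at 4.26, 1.36 and 2.02 CPM in CONTROL 1, 2 and 3 and at 0, 0.820 and 0 CPM in HOXA13 1, 2 and 3. The groups did not overlap, and the log2 fold change was -3.15 (SE 1.54, edgeR adjusted p = 0.419), or -3.46 without CONTROL 2 (edgeR adjusted p = 0.194). HOXA13 2 held all 14 counts of Col8a2 in the HOXA13 group, so the size of the change depends on that library, and the fitted value without it, -8.16, depends on the prior count.

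Type VI collagen, the beaded filament around most mesenchymal cells, was low in these libraries. Col6a1 was at 13.1, 1.20 and 6.90 CPM in CONTROL 1, 2 and 3 and at 0, 1.87 and 1.09 CPM in HOXA13 1, 2 and 3, with a log2 fold change of -2.81 (SE 1.26, edgeR adjusted p = 0.373), or -3.31 without CONTROL 2 (edgeR adjusted p = 0.0639). Col6a2, Col6a3 and Col6a5 were at 1.05, 3.18 and 1.58 CPM on average, with log2 fold changes of -0.78, 0.24 and -2.16. Without CONTROL 2 they were -1.37, -0.27 and -0.42, so the sign of Col6a3 changed, and CONTROL 2 held 78 counts of Col6a5. Col6a4 was under the edgeR filter and had 65 counts in HOXA13 1 and at most 10 in any other library. DESeq2 gave it a log2 fold change of 4.24 (DESeq2 adjusted p = 0.183). Of the transmembrane chains, Col23a1 and Col25a1 had log2 fold changes of -0.49 and -0.63 at 1.34 and 1.11 CPM, and of -1.09 and -0.72 without CONTROL 2. Over the 8 tested other chains 7 were lower, with a median of -1.47, and without CONTROL 2 all 8 were lower, with a median of -1.23. With chromosome offsets all 8 were lower as well, so the sign of Col6a3, which lies on chromosome 1, also changed there. The 12 collagens under the edgeR filter averaged at most 1.01 CPM, and their highest single value was that of Col6a4 in HOXA13 1, 4.99 CPM.

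The chains of 1 trimer were compared within each library as a log2 ratio, which does not depend on gene length for a comparison of groups. With 3 libraries against 3 the smallest two-sided exact permutation p is 0.1, so none of the 10 pairs could pass. The ratio of Col1a1 to Col1a2 was 2.14 ± 0.55 in CONTROL and 1.08 ± 1.21 in HOXA13 (SD, n = 3), an exact permutation p of 0.2. HOXA13 1, at -0.28, was below HOXA13 2 and 3, at 1.51 and 2.02, and without it the difference between the groups went from -1.06 to -0.38. The ratio of Col11a1 to Col11a2 was 4.92, 0.28 and 3.70 in CONTROL 1, 2 and 3 and 0.49, -0.85 and -0.71 in HOXA13 1, 2 and 3. The pairs Col6a1 with Col6a2 and Col6a3 with Col6a1 did not overlap between groups and reached the smallest exact permutation p of 0.1, 0.4 after adjustment over the 10 pairs. The ratio of Col6a3 to Col6a1 was -1.25 ± 0.09 in CONTROL and 2.91 ± 3.18 in HOXA13 (SD, n = 3). HOXA13 1, where Col6a1 had no count and the prior count sets the ratio, gave the highest value. The difference between the groups went from 4.15 to 2.32 without HOXA13 1 and to 3.40 with a prior count of 2. For Col6a1 with Col6a2, HOXA13 1 had no count of either chain and CONTROL 2 none of Col6a2, so the ratios of these libraries, 0 and 4.95, are set by the prior count and the separation of this pair is not read as a difference.

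The makeup of the collagen reads differed between libraries. Basement membrane chains took 59.9% (95% Wilson interval 59.5% to 60.2%), 92.3% (92.0% to 92.6%) and 78.3% (78.0% to 78.6%) of collagen counts in CONTROL 1, 2 and 3. In HOXA13 1, 2 and 3 they took 91.6% (91.2% to 92.0%), 81.7% (81.3% to 82.1%) and 89.3% (89.0% to 89.6%). Fibrillar chains took 34.7%, 5.75% and 16.8% in the CONTROL libraries and 6.47%, 15.5% and 9.33% in the HOXA13 libraries. The groups overlapped for both classes through CONTROL 2, and the intervals cover counting error only, since reads are not independent molecules. Per kb of the longest transcript, Col4a1 was the highest collagen in 4 libraries, at 272 and 287 CPM per kb in CONTROL 1 and 3 and 124 CPM per kb in both HOXA13 2 and HOXA13 3. In CONTROL 2 and HOXA13 1 it was Col18a1, at 101 and 85.2 CPM per kb, ahead of Col4a1 at 93.9 and 56.1 CPM per kb. Col1a1 was next after the type IV pair in CONTROL 1 and 3, at 196 and 49.7 CPM per kb, and was not among the 5 highest in CONTROL 2, HOXA13 1 or HOXA13 3.

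The start windows of 3 further collagens that edgeR called without CONTROL 2 were read in the same way. Those of Col11a1 (GRCm38 chr3:114030290-114030589, plus strand) and Col7a1 (GRCm38 chr9:108953336-108953635, plus strand), which DESeq2 also called, and of Col18a1 (GRCm38 chr10:77166481-77166780, minus strand), called as higher, are printed as examples. Capitals again mark the CCAAT box and the GC box on either strand.
Col11a1: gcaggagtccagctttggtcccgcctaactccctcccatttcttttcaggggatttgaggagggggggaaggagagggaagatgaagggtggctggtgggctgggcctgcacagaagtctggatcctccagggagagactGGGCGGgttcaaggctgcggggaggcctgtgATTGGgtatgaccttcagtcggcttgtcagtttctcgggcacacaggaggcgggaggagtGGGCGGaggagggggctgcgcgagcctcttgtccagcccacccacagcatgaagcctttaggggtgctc
Col7a1: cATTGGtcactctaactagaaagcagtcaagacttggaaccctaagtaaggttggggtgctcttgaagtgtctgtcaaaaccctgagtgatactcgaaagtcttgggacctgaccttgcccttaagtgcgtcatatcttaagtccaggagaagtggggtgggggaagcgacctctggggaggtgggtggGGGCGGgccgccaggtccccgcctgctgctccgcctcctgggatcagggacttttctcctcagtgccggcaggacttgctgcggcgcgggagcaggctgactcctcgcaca
Col18a1: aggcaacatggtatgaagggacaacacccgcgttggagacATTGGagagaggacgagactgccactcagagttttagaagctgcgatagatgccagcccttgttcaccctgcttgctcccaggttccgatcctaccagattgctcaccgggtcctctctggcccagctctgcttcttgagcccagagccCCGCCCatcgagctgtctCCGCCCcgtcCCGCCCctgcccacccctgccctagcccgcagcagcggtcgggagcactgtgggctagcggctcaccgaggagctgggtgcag

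The GC box was found in 60.5% of the 38 collagen windows and in 35.7% of all 32851 windows of the same length, and the CCAAT box in 34.2% and 37.4%. The TATA box, searched as TATAAA on both strands, was found in 13.2% of collagen windows (Col10a1, Col11a2, Col13a1, Col17a1 and Col3a1) and in 13.6% of all windows. Motifs reported for HOX13 proteins were searched as CAATAAA and TCGTAAA on both strands. CAATAAA occurred in 1 collagen window, that of Col6a4, which was under the edgeR filter, and in 4.60% of all windows. TCGTAAA occurred in 0 collagen windows and in 0.597% of all windows. A match describes letters in the window and is not a site. Col18a1 has a second start, for which the window held neither the CCAAT box nor the GC box, and gene counts do not separate its starts.

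The genes that fold, trim and cross-link collagen were followed as a list. Of 30 listed, 28 were tested and 24 were lower and 4 higher by fitted value, with a median log2 fold change of -0.91, and 1 passed in edgeR, against 0.309% of all genes. This was Pcolce, which speeds the removal of the procollagen tail, at 156, 116 and 133 CPM in CONTROL 1, 2 and 3 and at 58.0, 54.8 and 51.0 CPM in HOXA13 1, 2 and 3. The groups were well apart in every library, at a log2 fold change of -1.31 (SE 0.17, edgeR adjusted p = 0.0461). Pcolce did not pass when any 1 library other than CONTROL 2 was left out, with edgeR adjusted p from 0.0918 to 0.328, with a mean of at least 50 counts (0.0506) or with chromosome offsets (0.065), and over those fits its log2 fold change lay between -1.36 and -1.21. The collagen chaperone Serpinh1 was at 1206, 476 and 1265 CPM in CONTROL and at 326, 383 and 409 CPM in HOXA13, without overlap, at -1.40 (SE 0.34, edgeR adjusted p = 0.135). P4hb, a subunit of prolyl 4-hydroxylase, and Bmp1, which cleaves the procollagen tail, had log2 fold changes of -0.36 and -0.33. DESeq2 called 4 of the list, Pcolce, Serpinh1, P3h1 and Adamts14, all lower, against 5.07% of all genes, and edgeR without CONTROL 2 called 13, against 14.2% of all genes, of which 12 were lower and 1, Pcolce2, was higher. Of 10 collagen receptors 6 were tested, 4 were lower and none passed in edgeR (0 genes, while 2 had an unadjusted p under 0.05 and DESeq2 called 1, Mrc2), and edgeR without CONTROL 2 called 2, both lower. The shares of all genes under these 3 rules were 14.1%, 5.07% and 14.2%. Itgb1, the shared beta chain of the collagen-binding integrins, had a log2 fold change of -0.65, Ddr1, a receptor kinase of epithelial cells, 0.46, and Mrc2, which takes up collagen fragments, -2.70.

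Markers of other cell types were compared with the collagens across the libraries. Each list was summarised as the mean over its genes of log2 CPM minus the gene's mean over the 6 libraries. The fibrillar score was 1.96, -1.18 and 1.21 in CONTROL 1, 2 and 3 and -1.86, 0.33 and -0.46 in HOXA13 1, 2 and 3, and the mesenchymal marker score was 1.68, -0.89 and 1.28 and then -1.75, 0.30 and -0.63. The order of the 6 libraries was the same for both. The summed level of the 20 mesenchymal and fibroblast markers was 861 to 7979 CPM in CONTROL and 389 to 1453 CPM in HOXA13, 15 of the 18 tested were lower and none passed in edgeR (0 genes, while 7 had an unadjusted p under 0.05 and DESeq2 called 1, Mmp2). Without CONTROL 2 edgeR called 9 of them, all lower, against 14.2% of all genes. With all libraries the shares of all genes were 14.1% for an unadjusted p under 0.05 and 5.07% for DESeq2. Their most abundant genes, Vim, Tagln and Fbln2, had log2 fold changes of -2.64, -2.16 and -0.91. The fibroblast marker Fap had no count in any library, and Lum had counts only in CONTROL 1, at 0.851 CPM. Dcn lay between 0.849 and 6.62 CPM and was 1 of the 3 tested markers that were higher, at a log2 fold change of 1.19. Fap, Lum and Dcn were picked after their values were seen and do not stand for the list. Mmp2, for example, was at 194, 16.6 and 78.6 CPM in CONTROL 1, 2 and 3. In HOXA13 1, 2 and 3 it was at 3.5, 5.9 and 4.4 CPM. The basement membrane score had a narrower range, from -0.25 in CONTROL 2 to 0.50 in CONTROL 3. It averages 5 chains that were lower and 3 that were higher, which partly cancel. The summed level of the class ran from 1352 CPM in HOXA13 1 to 3848 CPM in CONTROL 3, so the score does not show stable levels.

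The 18 epithelial markers ran the opposite way, with scores of -1.77, 0.18 and -0.44 in CONTROL 1, 2 and 3 and of 0.52, 0.66 and 0.85 in HOXA13 1, 2 and 3. All 18 were higher in HOXA13, with a median of 1.13, and 15 had all HOXA13 values above all CONTROL values, against 11.5% of all genes. None passed in edgeR (0 genes, while 13 had an unadjusted p under 0.05 and DESeq2 called 4, Krt19, Esrp2, Tjp1 and Ovol1), and edgeR without CONTROL 2 called 13, all higher. The shares of all genes were 14.1% for an unadjusted p under 0.05, 5.07% for DESeq2 and 14.2% for edgeR without CONTROL 2. Their summed level was 3386 to 9600 CPM in CONTROL and 11880 to 14490 CPM in HOXA13, led by Cldn4, Krt18 and Cdh1. The parietal endoderm, an early embryonic layer that secretes type IV collagen, was followed by 12 markers, of which 10 were lower with a median of -0.64. Their summed level was 2568 to 5470 CPM in CONTROL and 2403 to 2944 CPM in HOXA13, led by Sparc, Nid1 and Lamb1, and Sox7 lay between 0.709 and 5.76 CPM.

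A list of 12 mesonephric markers was followed, since the M15 feeder cells come from the mesonephros. Whether M15 cells express these genes was not tested, so the list is not a measure of feeder cells in the libraries. All 9 tested were lower, with a median of -0.73, and their summed level was 30.1 to 39.3 CPM in CONTROL and 11.7 to 21.0 CPM in HOXA13, led by Hoxa11, Hoxd11 and Emx2. Wt1 was at 1.49, 6.64 and 3.15 CPM in CONTROL 1, 2 and 3 and at 0, 1.05 and 0.667 CPM in HOXA13 1, 2 and 3. Pluripotency markers summed to 157, 1566 and 250 CPM in CONTROL 1, 2 and 3 and to 833, 504 and 488 CPM in HOXA13 1, 2 and 3, so CONTROL 2 and HOXA13 1 were the highest libraries. With all libraries, visceral endoderm markers, led by Dab2, Cubn and Apoa2, had a median of -0.31. Definitive endoderm markers, led by Eomes, Gata4 and Hhex, had a median of -0.02, and that of the pluripotency markers was -0.43. The pluripotency values depended on CONTROL 2. Without it, the log2 fold changes of Pou5f1 and Lin28a turned from -1.65 and -0.45 to 3.33 and 0.48. That of Klf4 was positive in both fits, at 0.64 and then 1.13. No gene of the parietal, mesonephric, visceral, definitive endoderm or pluripotency lists passed in edgeR with all libraries (0 genes, while 4, 1, 0, 1 and 0 of them had an unadjusted p under 0.05), and DESeq2 called 3 parietal (Sparc, Lama1 and Fst) and 1 definitive endoderm marker (Eomes), where the shares of all genes were 14.1% and 5.07%. Without CONTROL 2 edgeR called 6 parietal, 0 mesonephric, 1 visceral and 1 definitive endoderm markers, all lower, and 6 pluripotency markers, all higher, where 14.2% of all genes were called. The counts of the mesonephric, visceral and definitive endoderm markers, 0 of 9, 1 of 6 and 1 of 9, are near or below that share. The part of any of these cell types in the collagen levels was not tested.

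**Figure D4:**
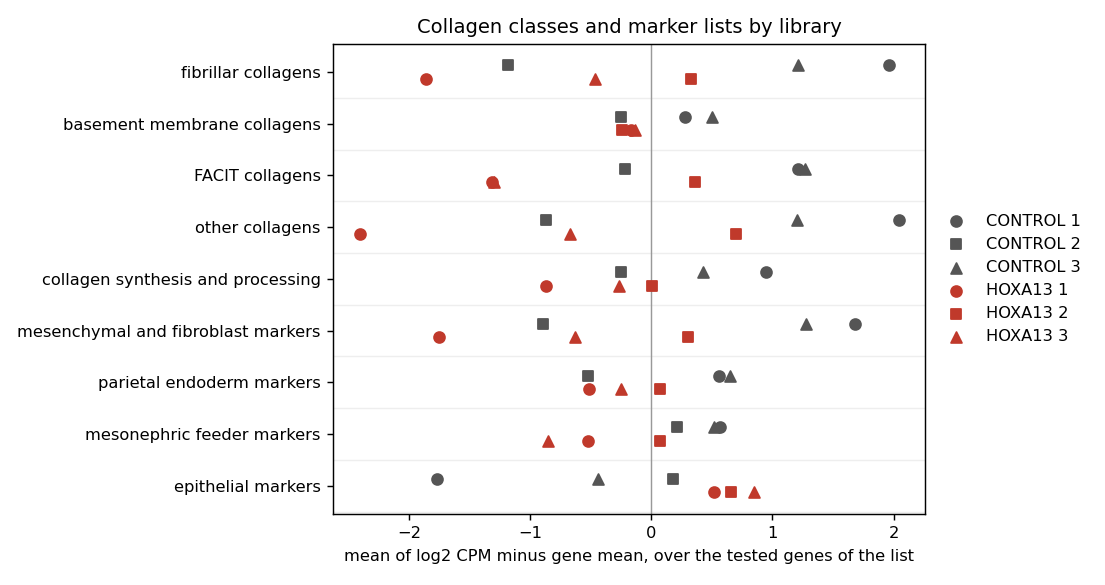
Mean over the tested genes of each list of log2 CPM minus the gene's mean, 1 point per library, for the 4 collagen classes, the collagen synthesis genes and 4 marker lists. CONTROL 1 and 3 lie to the right for fibrillar, FACIT and other collagens and for mesenchymal markers, HOXA13 1 lies to the left, and epithelial markers run from CONTROL 1 at -1.77 to HOXA13 3 at 0.85.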

How the data were processed

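RNA was measured in 3 CONTROL and 3 HOXA13 libraries, grouped and numbered by their sample titles; no batch is named there. The authors deposited unnormalised read counts for each gene symbol, made with TopHat on mm9 and HTSeq from stranded poly-A libraries (TopHat2 2.0.14, HTSeq 0.6.1p1 and bcl2fastq 2.17 in the submitters' processing notes). The annotation, strand setting and handling of multi-mapping reads are not given in the sources used here, so overlapping genes, such as Col4a1 and Col4a2 at their starts, and antisense genes are uncertain. Depth was 12279884 to 17331638 counts per library.

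The edgeR 4.0.16 package (R 4.3.3) was used with filterByExpr (minimum count 10, minimum total 15, 13600 genes kept), TMM normalisation and the quasi-likelihood test in its earlier form, with group as the only term. P-values were adjusted by Benjamini-Hochberg over all tested genes at a threshold of 0.05, and standard errors came from the F statistic. Chain ratios used log2 CPM (prior count 0.5, alternatively 2). Other settings tried were DESeq2 1.42.0 (which the study used), limma 3.58.1 voom with sample quality weights, RLE scaling, other filters, the edgeR 4 method, a replicate block, chromosome offsets and leaving out each library. The code was tested on simulated data.

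Collagens given by library were those called by edgeR or DESeq2, those averaging at least 20 CPM, and tested collagens whose groups do not overlap. From other lists, genes called by edgeR and up to 3 of the most abundant were named. Genes called by DESeq2, Pcolce2, partner chains, Col6a1, Col19a1, Col14a1, Wt1, Sox7, Fap, Lum and Dcn were added after their values were seen. Sox17, Foxa2, Cxcr4 and Cer1 were named outside these rules, as definitive endoderm markers. The collagens and lists were chosen with earlier results of these data known. Positions are from GENCODE M1 on mm9 (43 of 44 collagens) and start windows from RefSeq on GRCm38.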

Additional observations from a re-analysis of the deposited data

How the results depend on the processing

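The count of called collagens was 0 in edgeR, 3 with DESeq2, 1 with no filter beyond 1 count (Col11a1, edgeR adjusted p = 0.0436), 11 with limma voom and 0 to 10 when 1 library was left out, where every call came from the fit without CONTROL 2. Over all genes the count was 42, against 722 with DESeq2, 163 with no filter, 9 where the mean had to reach 50 counts, 106 with the method of edgeR 4, 2101 with voom, 1 with chromosome offsets and 0 to 2006 when 1 library was left out. The median of the other collagens was -3.20 with a mean of at least 50 counts, where only 2 were tested. The causes of the remaining shifts were not tested. With the replicate number as a block 0 genes and 0 collagens were called by edgeR (1392 genes and 3 collagens at an unadjusted p under 0.05), and Pcolce had an adjusted p of 0.165. Same-numbered samples had correlations of -0.186, -0.247 and 0.0789 between their deviations, against a mean of 0.0662 for different numbers. The deviations were taken from the mean of each small group, so these values cannot exclude a shared culture or batch. The sample titles name no pairing beyond the number, and the pairing was not used. None of the 16 collagens described by library changed sign under the alternatives run, and the RLE scaling changed no call among them. Leaving out 1 library kept the fibrillar median between -1.46 and -0.50, the basement membrane median between -1.14 and -0.74 and the FACIT median between -1.95 and -0.91. The 12 collagens under the filter averaged at most 1.01 CPM and were not tested in the edgeR fit of all libraries.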
